A study of Mus musculus with 3 samples.

Results

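The cells described here are sorted retinal cells with a high level of Igfbp2 transcript and almost no transcripts of cell cycle genes. Igfbp2 encodes a secreted protein that binds insulin-like growth factors. Members were the cells with at least 5 Igfbp2 and under 10 Ccl2 unique molecular identifiers (UMIs) per 10000 UMIs of the cell, and with 0 or 1 UMI summed over 18 genes of DNA replication and mitosis. The rule found 784 members among 24672 cells that passed a filter on genes and mitochondrial share, 319 in run 1, 230 in run 2 and 235 in run 3. Run 1 had a share of 4.16% (95% exact binomial interval 3.72 to 4.63), run 2 of 2.61% (2.29 to 2.97) and run 3 of 2.86% (2.51 to 3.25), a mean of 3.21% ± 0.83 (SD, n = 3 runs). The intervals cover counting error only, and those of run 1 and the other runs did not overlap. Members made up 12.9% of the 6093 cells with this Igfbp2 and Ccl2 level, and the other 5309 held at least 2 UMIs of the 18 genes.

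The cells came from adult mice of 1 genotype, Glast-CreERT+/tg; Yap5SA+/tg; ROSA26R-tdTomato+/tg, given tamoxifen and then NMDA, a glutamate receptor agonist toxic to neurons. At 2 days after NMDA the retinas were dissociated, cells with tdTomato were isolated by flow cytometry, and 3 runs of 10X Chromium libraries were made. Every cell compared below shares this genotype and treatment, and no control group, uninjured retina or retina without Yap5SA is used here. Classes of cells were therefore compared within each run, members first against 13225 cells outside the cycle with under 1 Igfbp2 UMI per 10000 (called Igfbp2-low cells), and then against the 5309 cells of the same Igfbp2 and Ccl2 level in the cycle. P-values measure how far the difference between classes within a run varied over the 3 runs. The labels do not say that the runs are separate animals, so this variation may be partly technical. Sex-linked transcripts given below show that run 2 held a different mix of mice from runs 1 and 3. The Cre line uses the promoter of Glast (Slc1a3), a glutamate transporter gene of Müller glia that retinal astrocytes also express. Yap5SA itself is not a gene of the deposited table, so its level in single cells was not measured.

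Müller glia are the radial support cells of the retina, which clear glutamate and potassium and recycle retinoids. After injury those of mammals enter gliosis and seldom divide. YAP is a coactivator that binds TEAD factors on DNA, and the Hippo kinases keep it out of the nucleus by phosphorylation. Yap5SA lacks the sites for that phosphorylation. Known outputs of YAP include matricellular proteins, actin-binding proteins and feedback inhibitors of the pathway. Entry into the cell cycle is driven by D cyclins with their kinases and opposed by CDK inhibitors such as p21 (Cdkn1a), p27 (Cdkn1b) and p57 (Cdkn1c).

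Besides Igfbp2, 5 genes were given as marks of these cells. Cdkn1c encodes p57, an imprinted CDK inhibitor (chromosome 7, 143458339 to 143461050, minus strand). Nuak2 encodes a kinase related to AMPK that is known as a YAP target (chromosome 1, 132316126 to 132333488, plus strand). Wisp2 encodes a matricellular protein of the CCN family (chromosome 2, 163820861 to 163833146, plus strand). Ogn (chromosome 13, 49608046 to 49624501, plus strand) and Fmod (chromosome 1, 134037254 to 134048277, plus strand) encode small leucine-rich proteoglycans of the extracellular matrix. Igfbp2 lies on chromosome 1, 72824503 to 72852474, plus strand. Positions are from GENCODE M21 on GRCm38.

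The sequence just upstream of a RefSeq start site is shown for Igfbp2, the gene that set the members, for Ogn and for Vgll3. Vgll3 encodes a cofactor of TEAD factors and, with Fbln5, led the rises named by rule in the first comparison below. These 250 bases are from RefSeq on GRCm38.p6, plus strand, at chr1:72824230-72824479 for Igfbp2, chr13:49607765-49608014 for Ogn and chr16:65814939-65815188 for Vgll3, and overlap no annotated exon. Capitals mark CATTCC or its reverse complement GGAATG, the letters of the motif that TEAD factors are known to bind.
Igfbp2: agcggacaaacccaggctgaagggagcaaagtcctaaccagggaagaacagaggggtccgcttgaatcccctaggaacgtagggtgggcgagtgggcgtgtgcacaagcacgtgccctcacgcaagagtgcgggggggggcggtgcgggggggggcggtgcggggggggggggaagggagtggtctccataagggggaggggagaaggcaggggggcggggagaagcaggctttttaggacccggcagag
Ogn: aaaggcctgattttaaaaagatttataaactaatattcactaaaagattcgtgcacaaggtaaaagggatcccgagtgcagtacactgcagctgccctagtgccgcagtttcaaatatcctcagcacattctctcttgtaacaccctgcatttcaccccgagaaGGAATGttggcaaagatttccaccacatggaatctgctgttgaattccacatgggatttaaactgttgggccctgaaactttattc
Vgll3: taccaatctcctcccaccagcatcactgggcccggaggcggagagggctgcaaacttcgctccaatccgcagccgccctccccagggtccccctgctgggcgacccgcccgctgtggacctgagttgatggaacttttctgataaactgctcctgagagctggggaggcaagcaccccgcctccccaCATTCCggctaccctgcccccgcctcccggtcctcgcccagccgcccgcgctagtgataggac
The motif was found once upstream of Ogn, at base -86 from the start, and once upstream of Vgll3, at base -63. It was not found in the window shown for Igfbp2, which has 2 RefSeq windows, and the other is not described here. Of all 32851 RefSeq windows of this length, 4153 (12.6%) held it on either strand, so these matches only describe the letters. A window was found for 3 of the 6 marks, and only those of Igfbp2 and Ogn are shown.

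The label Müller glia was checked against marker genes, and it did not hold for every member. All 25 listed Müller glia markers had UMIs in the members. However, 132 of the 784 members (16.8%) held at least 3 UMIs of the astrocyte markers Pax2, Pdgfra and S100b, 54 in run 1, 43 in run 2 and 35 in run 3. The counts split cleanly, since 629 members held 0 such UMIs, 23 held 1 or 2, none held 3, and 115 held 10 or more. The 3 markers summed to 1503 to 2153 CPM (UMIs of a gene in 1000000 UMIs of a class) per run in these 132 astrocyte-marked members, against 1.85 to 3.60 CPM in the other 652. That gap follows from the limit, which used these 3 genes, while Gfap and Aqp4 had no part in it. Gfap, the intermediate filament of astrocytes and reactive glia, had 7488, 6542 and 5931 CPM in the astrocyte-marked members, against 194, 125 and 84.8 CPM in the others. Aqp4, the water channel that Müller glia and astrocytes both use, had 20.9 ± 23.0 CPM against 457 ± 22.8 CPM (SD, n = 3 runs). The 132 cells are called astrocyte-marked members below and the other 652 unmarked members. Across the series, 333 cells met this limit, and 241 of them (72.4%) had at least 5 Igfbp2 UMIs per 10000. The limit was set after the data were seen, and every comparison is given with and without these cells.

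**Figure D1:**
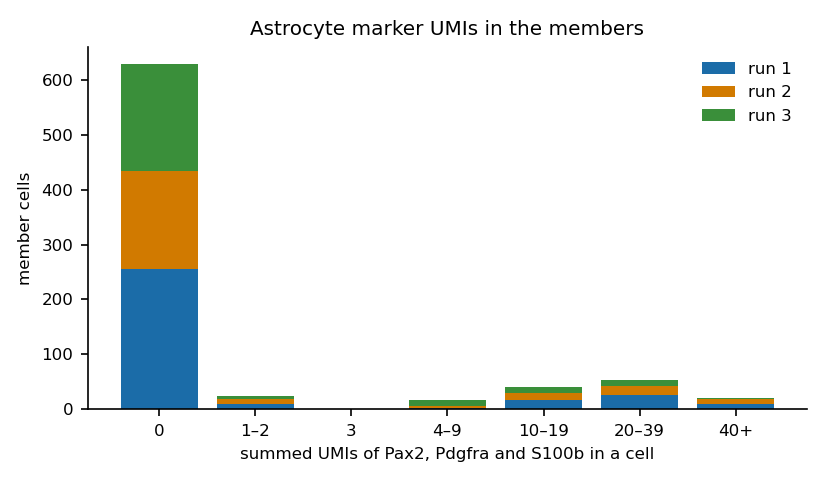
Number of member cells (vertical axis) by the summed UMIs of Pax2, Pdgfra and S100b in the cell (horizontal axis), with the 3 runs stacked. Most of the 784 members held 0 of these UMIs, none held 3, and 132 held 4 or more, in all 3 runs.

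The astrocyte-marked members also carried most of Rgs5, with 1936, 2595 and 1552 CPM, against 0.497, 16.2 and 0.370 CPM in unmarked members. Rgs5 is on the pericyte list, but Kcnj8 and Cspg4 of that list were at 0 in astrocyte-marked members. The whole list summed to 1943, 2595 and 1555 CPM there, so nearly all of it was Rgs5. The authors' own log table, which kept 13511 of the 24695 cells, held 0 of the 132 astrocyte-marked members, which allows a share of up to 2.27%, and 586 of the 652 unmarked ones (89.9%). Without astrocyte-marked cells, it kept 45.9% of the 13165 Igfbp2-low cells and 77.8% of the 5260 Igfbp2-high cells in the cycle, and these are the cells that unmarked members are set against below. Other cell types' markers differed in both directions. The microglia list summed to 1.11 to 3.73 CPM per run, against 6.69 to 51.4 CPM in Igfbp2-low cells, with Tmem119 at 0. The rod list summed to 822 to 1390 CPM, against 1729 to 2070 CPM, and the endothelial list to 211 to 281 CPM, against 722 to 763 CPM, with Cldn5 at 0. The fibroblast list was higher, at 23.1 to 41.5 CPM against 2.58 to 5.47 CPM, with Col3a1 at 0, and so was the ganglion cell list, at 141 to 168 CPM against 44.5 to 51.4 CPM, with Pou4f1 and Slc17a6 at 0. The lens list was higher too, at 7.55 to 16.7 CPM against 2.75 to 4.37 CPM, with Cryaa at 0. The part of these lists in the results was not tested. Values without cells marked for microglia, fibroblasts, astrocytes, cones or retinal pigment epithelium are given in the last paragraph.

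Depth differed between the classes. The median cell held 14509 UMIs among unmarked members, 12162 among astrocyte-marked members, 20982 among Igfbp2-high cells in the cycle and 9121 among Igfbp2-low cells (means of the run medians). Levels in CPM do not carry this difference, but a limit in raw UMIs does, and 437 members held 0 cycle UMIs while 347 held 1. The lowest total of any cell was 3538 UMIs, so shares of cells with a UMI are given after every cell was thinned at random to 3500 UMIs. Runs shared 83 to 108 cell barcodes pair by pair. They also differed in the sex of the mice, since cells with UMIs of Y-linked genes and none of Xist made up 22.1% of run 1 and 38.6% of run 3, while run 2 had 0%.

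The marks of the class were found in the unmarked members in every run. They were chosen on these data, so their levels are described without a test. Cdkn1c had 384, 414 and 296 CPM in runs 1, 2 and 3 of unmarked members, against 128, 91.4 and 71.8 CPM in Igfbp2-high cells in the cycle and 44.6, 31.7 and 34.1 CPM in Igfbp2-low cells. No run of the members overlapped either class. The astrocyte-marked members held 6 Cdkn1c UMIs in all, or 6.89, 1.74 and 0 CPM. Nuak2 had 180, 189 and 206 CPM in unmarked members, against 96.6, 84.8 and 99.4 CPM in the cycle and 8.46, 8.07 and 12.02 CPM in Igfbp2-low cells. Ogn had 62.4, 67.2 and 82.2 CPM, against 15.3, 11.1 and 9.40 CPM in the cycle and 0.583, 0.596 and 0.376 CPM in Igfbp2-low cells. The gap between members and cycling cells was thus wider for Cdkn1c and Ogn than for Nuak2. Wisp2 had 152, 144 and 190 CPM in unmarked members, against 96.5, 78.5 and 107 CPM in the cycle and 1.83, 1.49 and 1.20 CPM in Igfbp2-low cells. Fmod was the only one of the 5 that was higher in astrocyte-marked members (167, 232 and 202 CPM) than in unmarked ones (104.6, 103.6 and 166 CPM) in every run, though the highest unmarked and the lowest astrocyte-marked run nearly met. It had 67.6, 60.5 and 64.8 CPM in the cycle and 5.22, 4.96 and 6.57 CPM in Igfbp2-low cells. Igfbp2 itself, which set the classes, had 3468, 2930 and 3558 CPM in unmarked members and 3389, 2810 and 2818 CPM in the cycle.

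**Figure D2:**
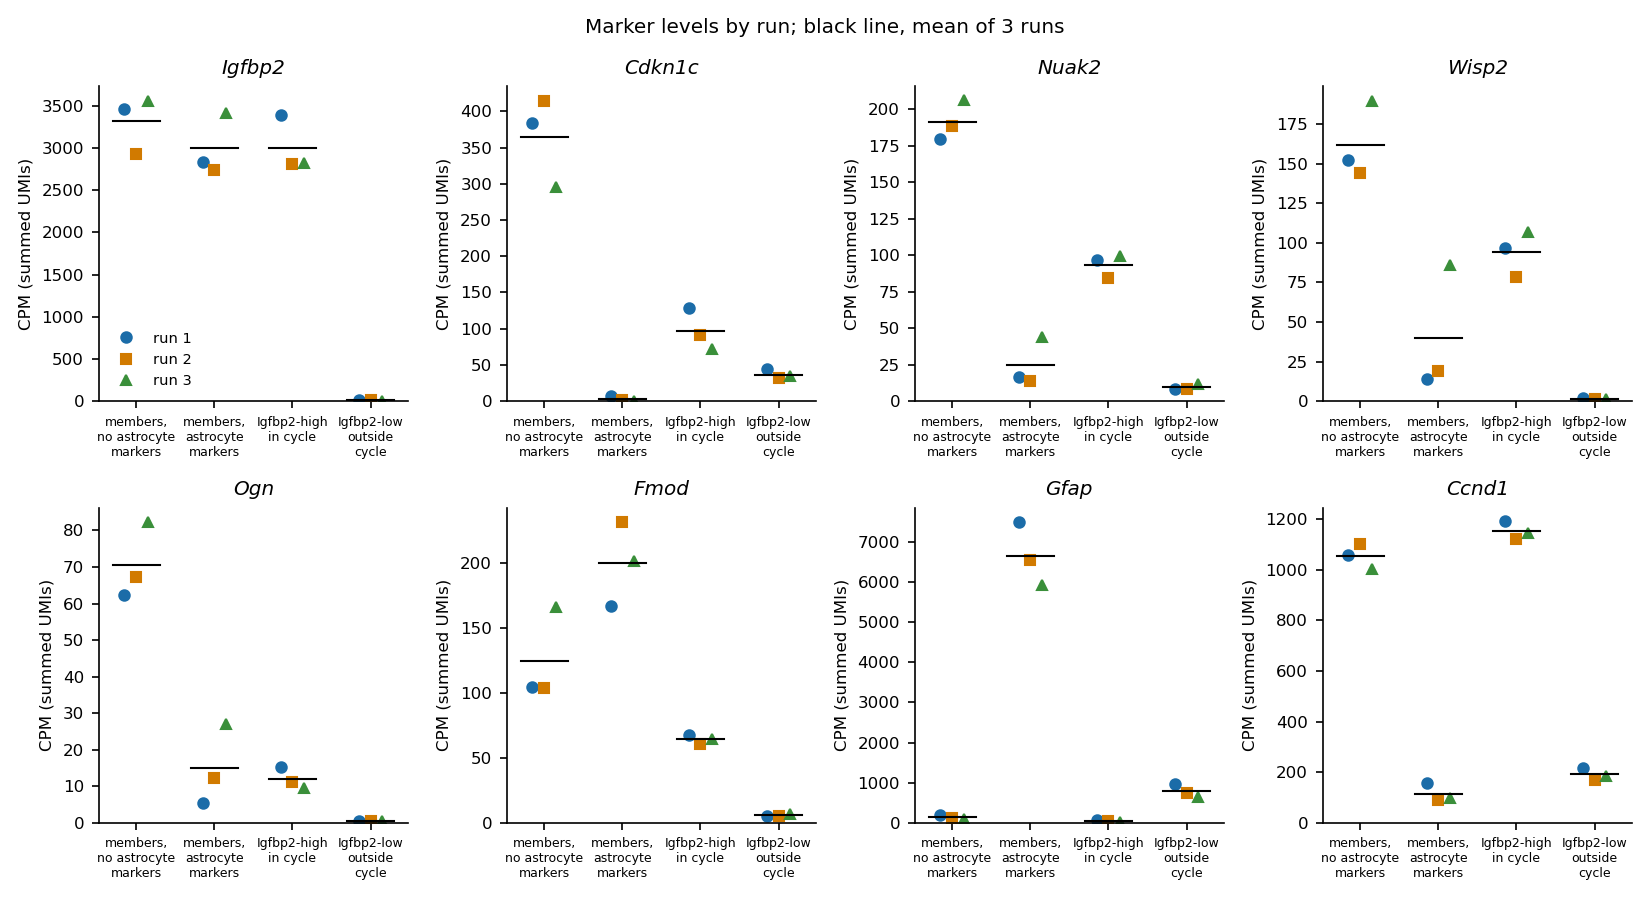
Level of 8 genes in CPM of the summed UMIs (vertical axes) in unmarked members, astrocyte-marked members, Igfbp2-high cells in the cycle and Igfbp2-low cells outside it (horizontal axes), with 1 point per run and the mean as a line. Cdkn1c and Ogn stood highest in unmarked members in every run, Gfap stood far highest in astrocyte-marked members, and Ccnd1 was about as high in unmarked members as in the cycle.

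Single cells carried the marks in part. After thinning, 50.3% ± 1.4 of unmarked members held a Cdkn1c UMI (SD, n = 3 runs; 74.2% before thinning), against 22.0% ± 3.7 of Igfbp2-high cells in the cycle and 10.8% ± 1.9 of Igfbp2-low cells. In 84 microglia-marked cells the share was 1.42% ± 2.46, and in astrocyte-marked members 0.617% ± 1.07. A thinned Igfbp2 UMI was found in 16.1% ± 14.2 of the microglia-marked cells, so they are not a class free of such transcripts. Median depths before thinning were 14450 UMIs for unmarked members and 15300 for microglia-marked cells. Nuak2 was found in 39.3% of thinned unmarked members, Wisp2 in 32.6%, Fmod in 29.5% and Ogn in 19.9%. In Igfbp2-high cells in the cycle these shares were 24.7%, 21.0%, 17.8% and 4.29%. In microglia-marked cells they were 4.69%, 2.13%, 1.28% and 0.709%. Of the 5 marks, unmarked members held none in 18.2% of cells, 1 in 29.6%, 2 in 24.8%, 3 in 18.9%, 4 in 7.21% and all 5 in 1.36%. In Igfbp2-high cells in the cycle 41.1% held none, and in Igfbp2-low cells 84.4%.

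Members that held Cdkn1c held Wisp2 and Nuak2 more often, with no overlap between runs, while the runs overlapped for Ogn and Fmod. Among thinned unmarked members, Wisp2 was found in 41.2%, 39.2% and 42.4% of the 327 cells with a Cdkn1c UMI, against 21.6%, 24.4% and 26.7% of the 325 without. Nuak2 was found in 43.9% ± 2.2, against 34.5% ± 2.2, and Cnn2, which encodes the actin-binding protein calponin 2, in 85.2% ± 4.4, against 66.5% ± 4.6. The runs of these 2 groups did not overlap for any of the 3 genes. For Ogn the shares were 22.9% ± 9.1 and 17% ± 5.1, for Fmod 32.5% ± 3.4 and 26.4% ± 8.9, and for Ccnd1 90.9% ± 4.4 and 88.0% ± 4.7, and the runs overlapped. These groups were formed on the cells themselves, so the shares are given with no test.

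Near the limits, levels inside and outside differed less than between the whole classes. The 36 members with 5 to 6 Igfbp2 UMIs per 10000 had 131 CPM of Cdkn1c, against 63.6 CPM in the 52 cells with 4 to 5. The 347 members with 1 cycle UMI had 316 CPM, against 368 CPM in the 195 cells with 2. On the Ccl2 limit, 8 members had 8 to 10 UMIs per 10000 and 9 cells left out had 10 to 12, and 5 of each were astrocyte-marked.

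The first comparison set members against Igfbp2-low cells of the same run, both outside the cycle. It asked which genes other than Igfbp2 differ between cells that are alike in lacking cycle transcripts. About as many genes rose as fell. Of 13581 genes tested over all members, 7079 passed (52.1%), 3631 higher (26.7%) and 3448 lower (25.4%), by edgeR's quasi-likelihood test with an adjusted p under 0.05. Without the astrocyte-marked cells, 7041 of 13387 passed (52.6%), 3551 higher (26.5%) and 3490 lower (26.1%). With every cell thinned to 3500 UMIs and the Igfbp2 and Ccl2 limits set on the thinned counts, 4423 of 12218 genes passed. These classes held 352, 257 and 250 members in runs 1, 2 and 3. The cycle limit stayed on unthinned UMIs. With so many genes called, a call alone says little, and sizes are given. In CPM the median gene of this second fit moved by -0.06 on the log2 scale. Per cell it was 0.42 higher in members, which held more UMIs, so a fall in CPM smaller than this can be a rise per cell. Of the 3490 falls, 2768 were also lower per cell, and counts of falls per cell below are to be read beside that share.

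The 12 largest rises in unmarked members included Vgll3, 3 secreted matrix genes and 2 actin-binding genes. Vgll3, a cofactor that binds TEAD factors, had 146, 164 and 166 CPM in unmarked members, against 3.63, 3.28 and 2.40 CPM in Igfbp2-low cells. The classes were far apart in every run, with a log2 change of 5.81 ± 0.12 (SE; edgeR adjusted p = 3.26e-12), and of 5.53 over all members. Cnn2 had 664, 684 and 786 CPM, against 18.2, 22.9 and 23.4 CPM, a log2 change of 5.18 ± 0.08. Pdlim2, a PDZ and LIM domain protein of the actin cytoskeleton, averaged 291 ± 5.92 CPM, against 6.82 ± 2.26 CPM (SD, n = 3 runs). Anxa3, an annexin, had 465, 323 and 302 CPM, against 19.7, 9.97 and 7.98 CPM, the highest in run 1 in both classes. Secreted matrix genes among the 12 largest rises were Fbln5 (log2 change 5.81), Tinagl1 (5.74) and Col8a1 (5.47). The others were Flrt3 (5.57), a membrane adhesion protein, Rprm (4.90), a gene known to halt the cycle in G2 downstream of p53, Hacd4 (4.88), an enzyme of very long fatty acid synthesis, Rbms1 (4.88) and Lhfp (4.81). The rule for these names asked for a mean of at least 50 CPM in the higher class, and each also rose over all members.

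The genes of the Hippo pathway and its targets moved unevenly. Of the 22 listed pathway genes, 12 rose and 3 fell in unmarked members, with a median log2 change of 0.45. Yap1 had 22.4, 23.0 and 26.7 CPM in unmarked members, against 25.8, 31.4 and 28.8 CPM in Igfbp2-low cells. The classes overlapped, with a log2 change of -0.12 ± 0.11 (edgeR adjusted p = 0.368), and whether transgene transcripts count towards this gene is not known. Wwtr1, which encodes the YAP relative TAZ, had a log2 change of -0.20 ± 0.09 that did not pass (edgeR adjusted p = 0.0908). Tead1, a DNA-binding partner of YAP, rose to 133, 142 and 169 CPM, against 42.5, 45.1 and 44.8 CPM, a log2 change of 1.87 ± 0.07. Tead4 rose to 11.6 ± 0.90 CPM, against 0.366 ± 0.12 CPM (SD, n = 3 runs), a log2 change of 5.10. Vgll4, a repressor of TEAD output, rose to 199 ± 12.3 CPM, against 79.6 ± 6.7 CPM.

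Of 21 tested YAP targets, 17 rose and 2 fell in unmarked members, with a median log2 change of 1.54, and 16 rose and 2 fell over all members. Amotl2, a feedback inhibitor of YAP, rose to 297, 343 and 483 CPM, against 30.6, 30.5 and 55.7 CPM, highest in run 3 in both classes, with a log2 change of 3.42 ± 0.08. Lats2, a Hippo kinase that YAP is known to induce, had 82.0, 85.6 and 121 CPM, against 9.71, 9.50 and 11.3 CPM. Ajuba, an inhibitor of the Hippo kinases, rose by 2.83 on the log2 scale and Axl, a receptor kinase, by 2.01. Ankrd1, a nuclear ankyrin repeat protein, rose by 4.92, to 21.8 ± 4.4 CPM, against 0.862 ± 0.795 CPM. The matricellular Cyr61, often used as a readout of YAP, hardly differed, with 1444, 1434 and 1817 CPM in unmarked members, against 1322, 1305 and 1940 CPM in Igfbp2-low cells. Its log2 change of 0.19 ± 0.06 passed in unmarked members (edgeR adjusted p = 0.0272) and that of 0.10 over all members did not (0.176). Ctgf, its close relative, rose by 0.64 ± 0.11 in unmarked members and by 1.86 over all members. In unmarked members the pair of CCN genes that YAP is best known for thus moved little, while Wisp1 of the same family rose to 26.6 ± 4.6 CPM, against 3.54 ± 0.27 CPM.

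D cyclins were high in members although cycle transcripts were scarce. Ccnd1 had 1057, 1101 and 1003 CPM in unmarked members, against 218, 170 and 186 CPM in Igfbp2-low cells, a log2 change of 2.60 ± 0.08 (edgeR adjusted p = 5.95e-11). Ccnd2 had 344, 385 and 291 CPM, against 45.6, 40.2 and 31.1 CPM, and Ccnd3 had 770, 792 and 912 CPM, against 241, 311 and 268 CPM. Both classes of each gene were well separated. Their kinases rose less for Cdk4, by 0.52, than for Cdk6, by 2.25. In all, 6 of 11 tested genes of the D cyclins, their kinases and E2F factors rose and none fell, and E2f1 had a log2 change of 0.35 that did not pass (edgeR adjusted p = 0.0576). S phase genes outside the rule split, with 4 of 22 higher and 3 lower, and 1 of 21 mitotic genes was higher and 3 lower. Mcm2, a replicative helicase subunit, had 10.8 ± 2.5 CPM, against 5.73 ± 1.66 CPM in Igfbp2-low cells, and 99.1 ± 8.6 CPM in Igfbp2-high cells in the cycle. Spc25, a kinetochore gene that was not low outside the cycle here, was lower in members, with 190, 121 and 109 CPM, against 638, 371 and 355 CPM.

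Most CDK inhibitors other than Cdkn1c were lower. Of 14 listed inhibitors, RB family members and related brakes, 9 fell and 2 (Cdkn2a and Ccng1) rose in unmarked members, with a median log2 change of -0.63. Cdkn1a had 24.6, 25.9 and 10.0 CPM in unmarked members, against 37.4, 51.1 and 65.0 CPM in Igfbp2-low cells, a log2 change of -1.12 ± 0.25 (edgeR adjusted p = 0.00219). Run 3 was the lowest of the members and the highest of the Igfbp2-low cells. Cdkn1b fell by 1.01 on the log2 scale, to 44.4 ± 4.4 CPM, against 99.7 ± 19 CPM, and Cdkn2c fell by 1.09. Rb1, the retinoblastoma gene, fell by 0.98 and Btg1, an antiproliferative gene, by 1.08. Per cell, 7 of the 9 that fell were also lower.

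Actin and myosin genes rose together. Of 27 tested, 22 rose and 2 fell, with a median log2 change of 1.27 in unmarked members and 1.14 over all members. Actb had 6170 ± 1206 CPM in unmarked members, against 2533 ± 406 CPM in Igfbp2-low cells (SD, n = 3 runs). Tpm1, a tropomyosin, had 609, 858 and 792 CPM, against 40.2, 42.1 and 39.7 CPM, a log2 change of 4.33 ± 0.08. Actn1, an actinin, rose by 3.55, Tagln (transgelin) by 4.63 and Acta2 (smooth muscle actin) by 2.96, and Tagln was highest in run 3 in both classes. Myl9, a myosin light chain, had a log2 change of 0.20 that did not pass (edgeR adjusted p = 0.0911). Of 28 matrix and adhesion genes, 19 rose and 4 fell in unmarked members, with a median log2 change of 1.23. Over all members 26 of 30 rose. Sparc, a matricellular protein, had 2851 ± 352 CPM, against 1119 ± 341 CPM, and Timp2, a protease inhibitor, 928 ± 31.8 CPM, against 312 ± 17.3 CPM. Of the other small leucine-rich proteoglycans, Prelp fell by 1.89, to 32.0 ± 8.6 CPM, against 131 ± 19.4 CPM, and Bgn rose by 3.75, to 12.3 ± 0.62 CPM, against 1.48 ± 2.23 CPM.

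Secreted signals and growth factor genes changed one by one. Csf1, the growth factor of microglia and macrophages, had 164, 297 and 245 CPM in unmarked members, against 11.8, 16.0 and 11.3 CPM in Igfbp2-low cells, a log2 change of 4.29 ± 0.10. The chemokines list held 3 rises and 9 falls among 13 genes in unmarked members, and 3 rises and 5 falls among 14 over all members, against Igfbp2-low cells with no limit on Ccl2. Over all members with that limit on both classes, 5 of 11 rose and none fell. In the insulin-like growth factor axis, 5 of 15 rose and 4 fell, with a median log2 change of -0.17. These counts are close to the shares over all genes, 26.5% higher and 26.1% lower. Igf1r, the receptor, had 123, 128 and 130 CPM, against 95.8, 88.9 and 87.4 CPM, and Insr, the insulin receptor, fell to 21.1 ± 4.8 CPM, against 44.7 ± 2.8 CPM. Igfbp3, a binding protein that YAP is known to induce, had 28.8, 36.3 and 58.5 CPM, against 3.08, 0.511 and 0.728 CPM. Igf2bp1, an RNA-binding protein of fetal tissues, had 18.2 ± 1.9 CPM, against 0.287 ± 0.117 CPM. Of 16 imprinted genes other than Cdkn1c, 7 rose and 4 fell, among them Plagl1, a zinc finger factor, with 155, 202 and 239 CPM, against 35.7, 35.4 and 43.6 CPM.

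Müller glia markers were lower in members, though not all. Of 25 tested, 19 fell and 4 rose in unmarked members, with a median log2 change of -0.91. Per cell, 16 of the 19 were also lower. Glul, glutamine synthetase, had 825, 633 and 561 CPM in unmarked members, against 2397, 1776 and 1734 CPM in Igfbp2-low cells, a log2 change of -1.42 ± 0.06 (edgeR adjusted p = 1.03e-09). Rlbp1, which carries retinaldehyde in the visual cycle, had 827, 751 and 808 CPM, against 1810, 1513 and 1594 CPM, and fell by 0.91. Members still held both genes in every run, and the classes did not overlap. Apoe fell to 2820 ± 247 CPM, against 7494 ± 584 CPM, and Kcnj10, the potassium channel Kir4.1, fell by 2.10. The transcription factors Sox9, Sox2 and Rax fell by 0.99, 1.07 and 1.24. Slc1a3, whose promoter drives Cre, fell by 0.34 in CPM, but it was not lower per cell, with 10.7 UMIs per cell against 9.76. The markers that rose included Prdx6, a peroxiredoxin, with a log2 change of 1.18, Lhx2, a homeobox factor of retinal progenitors and Müller glia, with 1.08, and Aqp4, with 0.56.

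Reactive genes depended on which members were counted. In unmarked members 13 of 18 gliosis genes fell and 4 rose, with a median log2 change of -1.0, while over all members 8 of 19 fell and 8 rose. Gfap had 194, 125 and 84.8 CPM in unmarked members, against 961, 743 and 650 CPM in Igfbp2-low cells, a log2 change of -2.44 ± 0.10. Over all members its log2 change was 0.59, the opposite direction. Nupr1, a stress-induced regulator, had 666, 433 and 421 CPM, against 2364, 2775 and 2422 CPM, and fell by 2.21. S100a6, a calcium-binding protein, and Vim (vimentin) rose, by 1.96 and 0.80. Lcn2 (lipocalin 2) and Fn1 (fibronectin) were higher over all members, by 3.42 and 2.55, and lower in unmarked ones, with -1.75 and -0.48. Lcn2 was uneven in Igfbp2-low cells, with 40.8, 317 and 51.1 CPM, and these cells had no limit on Ccl2. The largest rises over all members included Lect1 (8.08), Pdgfra (6.68), Ntrk2 (5.95), Igfbp5 (5.69) and Rgs5 (5.65). In unmarked members Lect1 had 0, 2.16 and 0.370 CPM, Ntrk2 had a log2 change of 0.85, Igfbp5 of -0.73 and Rgs5 of -0.29, none of these 3 past the threshold by edgeR.

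Most immediate early and interferon-induced genes were lower in unmarked members. Of 21 immediate early genes, 16 fell and 2 rose in unmarked members, with a median log2 change of -0.91, and all 16 were lower per cell. Fos had 948, 1083 and 1980 CPM, against 2271, 2362 and 3789 CPM, and Junb fell by 1.60. Run 3 was the highest in both classes for Fos, and the classes still did not overlap. Of 18 interferon-induced genes, 13 fell and 1 rose in unmarked members, while 8 fell and 2 rose over all members. Igfbp2-low cells had no limit on Ccl2 in either count, and counts with that limit on both classes are not given here. Bst2 was the one that rose, by 1.02, with overlapping runs. The helix-loop-helix inhibitors Id1, Id2 and Id3, targets of BMP signals, fell by 2.12, 2.16 and 1.76. In the TGF-beta and BMP list as a whole, 8 of 16 fell and 4 rose in unmarked members, with a median log2 change of -0.40, and 7 of 17 fell and 5 rose over all members. In the Notch list 6 of 9 fell and 3 rose. Hes5, a Notch effector, had 8.45, 10.8 and 19.6 CPM, against 47.9, 79.2 and 121 CPM. Other large falls were Txnip (-2.96), which limits glucose uptake, Prss56 (-2.92), a serine protease of Müller glia, Trf (-2.75), transferrin, Gamt (-2.74), of creatine synthesis, Mfap2 (-2.67), a microfibril protein, Aldoc (-2.62), an aldolase, and Cela1 (-2.53), an elastase. Over all members Trf fell by only 0.69, and Prss56 was uneven in Igfbp2-low cells, with 126, 149 and 510 CPM.

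**Figure D3:**
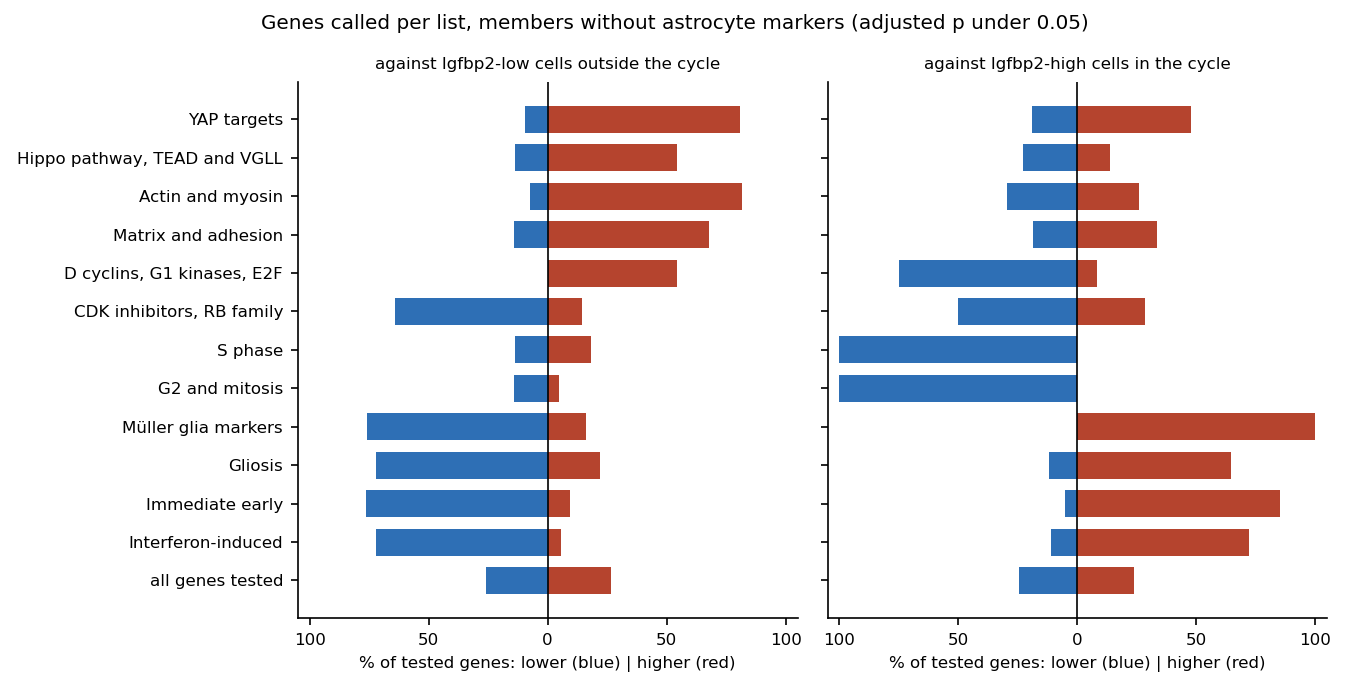
Percent of the tested genes of each list that were lower (blue, to the left) or higher (red, to the right) in unmarked members by edgeR, against Igfbp2-low cells (left panel) and against Igfbp2-high cells in the cycle (right panel), with all genes tested at the bottom. YAP targets and actin genes lean to higher in the left panel and Müller glia markers to lower, while in the right panel every S phase and mitotic gene tested is lower and every Müller glia marker higher.

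The second comparison set members against the Igfbp2-high cells in the cycle. It asked what goes with the lack of cycle transcripts when Igfbp2 is high in both. Of 13256 genes tested over all members, 7040 passed (53.1%), 3512 higher (26.5%) and 3528 lower (26.6%), and in unmarked members 6234 of 13004 passed (47.9%), 3066 higher (23.6%) and 3168 lower (24.4%). With cells thinned and the Igfbp2 and Ccl2 limits set on the thinned counts, 4570 of 10851 passed. In CPM the median gene of this second fit moved by 0.01 on the log2 scale. Cycling cells held more UMIs, and per cell the median gene moved by -0.60, so a rise in CPM smaller than this can be a fall per cell. Of the 3066 rises, 1478 were also higher per cell. All 23 S phase genes and all 24 mitotic genes tested were lower, with median log2 changes of -3.53 and -6.19 in unmarked members. They are of the same kind as the genes of the rule, so this only shows that the limit sorted the cells as meant. Plk1 (polo-like kinase), for instance, had 1.49, 0.719 and 0.370 CPM, against 98.0, 114 and 113 CPM. Cenpe, a kinetochore motor, had the largest fall, -7.09.

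Müller glia markers were higher outside the cycle. All 25 Müller glia markers were higher in unmarked members, with a median log2 change of 0.91, and 22 of them were also higher per cell. Rlbp1 had 827, 751 and 808 CPM in unmarked members, against 373, 360 and 336 CPM in the cycle, a log2 change of 1.21 ± 0.06 (edgeR adjusted p = 5.67e-15). Glul rose by 0.71 and Aqp4 by 1.41. Rlbp1 and Glul in members thus lay between the cycling cells and the Igfbp2-low cells, while Aqp4 was higher in members than in both. Mxd4, a MAX-binding protein that opposes MYC, had 61.6, 78.8 and 60.0 CPM, against 21.1, 17.7 and 16.1 CPM, a log2 change of 1.91 ± 0.11. Hist1h2bc, a histone gene, had 284, 363 and 417 CPM, against 93.1, 90.5 and 96.6 CPM. Mt3, a metallothionein of brain and retina, had 373, 166 and 159 CPM, against 103, 45.4 and 38.4 CPM, highest in run 1 in both classes. Gfap rose by 1.72 in unmarked members, to 134.5 ± 55.0 CPM, against 42.1 ± 15.6 CPM, and by 3.94 over all members. The noncoding RNAs Meg3 and Neat1 rose by 1.69 and 1.49. Also among the 12 largest rises were S1pr3 (1.63), a sphingosine phosphate receptor, Slc7a2 (1.53), an amino acid transporter, Tsc22d4 (1.43), Mbd1 (1.59), a methyl-CpG-binding protein, and Chil1 (1.91), which had 91.0 CPM in run 2 of the members and 34.0 and 35.2 CPM in the others.

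Several genes of the first comparison did not separate members from cycling cells. Ccnd1 had 1057, 1101 and 1003 CPM in unmarked members, against 1191, 1123 and 1148 CPM in the cycle, a log2 change of -0.08 ± 0.06 that did not pass (edgeR adjusted p = 0.287), though the runs did not overlap. Over all members it was -0.31 and passed. Vgll3 had log2 changes of 0.04 ± 0.06 and Cnn2 of 0.06 ± 0.06 in unmarked members, and neither passed. Over all members these were -0.21 and -0.17 and passed. Ccnd2 was lower in unmarked members, with a log2 change of -0.54. Of 21 YAP targets, 10 were higher and 4 lower in unmarked members, but none of the 10 was higher per cell. Amotl2 rose by 0.47 with overlapping runs. Cdkn1a was lower in members, with 24.6, 25.9 and 10.0 CPM, against 59.5, 60.8 and 63.9 CPM, a log2 change of -1.52 ± 0.15. Immediate early genes were higher in 17 of 20 and lower in 1, and 9 of the 17 were higher per cell. Interferon-induced genes were higher in 13 of 18, and 2 of the 13 were higher per cell.

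The levels changed in steps with the number of cycle UMIs. Among unmarked Igfbp2-high cells, Cdkn1c averaged 373 CPM in the 357 cells with 0 cycle UMIs, 354 CPM in the 295 with 1 and 338 CPM in the 360 with 2 to 4, although run 3 alone had 320, 259 and 233 CPM. It then averaged 123 CPM in the 266 cells with 5 to 9, and 78.5, 79.4 and 83.2 CPM in the 3 groups with 10 or more. Mxd4 followed the same course, with 67.4, 66.4 and 66.3 CPM up to 4 UMIs, 32.6 CPM at 5 to 9 and 13.7 CPM in the 2513 cells with 50 or more. Cells with 2 to 4 cycle UMIs therefore resembled members in these genes, although the rule counts them as in the cycle. Ogn averaged 70.3, 71.9 and 52.8 CPM in the first 3 groups and 6.71 CPM in the last. Rlbp1 averaged 792, 803 and 674 CPM in the first 3 and 333 CPM in the last. Cdkn1a ran the other way, with 18 CPM at 0 and 62.2 CPM at 50 or more. Ccnd1 stayed between 925 and 1198 CPM and Igfbp2 between 2714 and 3383 CPM across all 7 groups. Median depth was 13140 UMIs at 0, 16380 at 2 to 4, 11950 at 5 to 9 and 27050 at 50 or more, and the part of depth in the step at 5 to 9 was not tested.

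**Figure D4:**
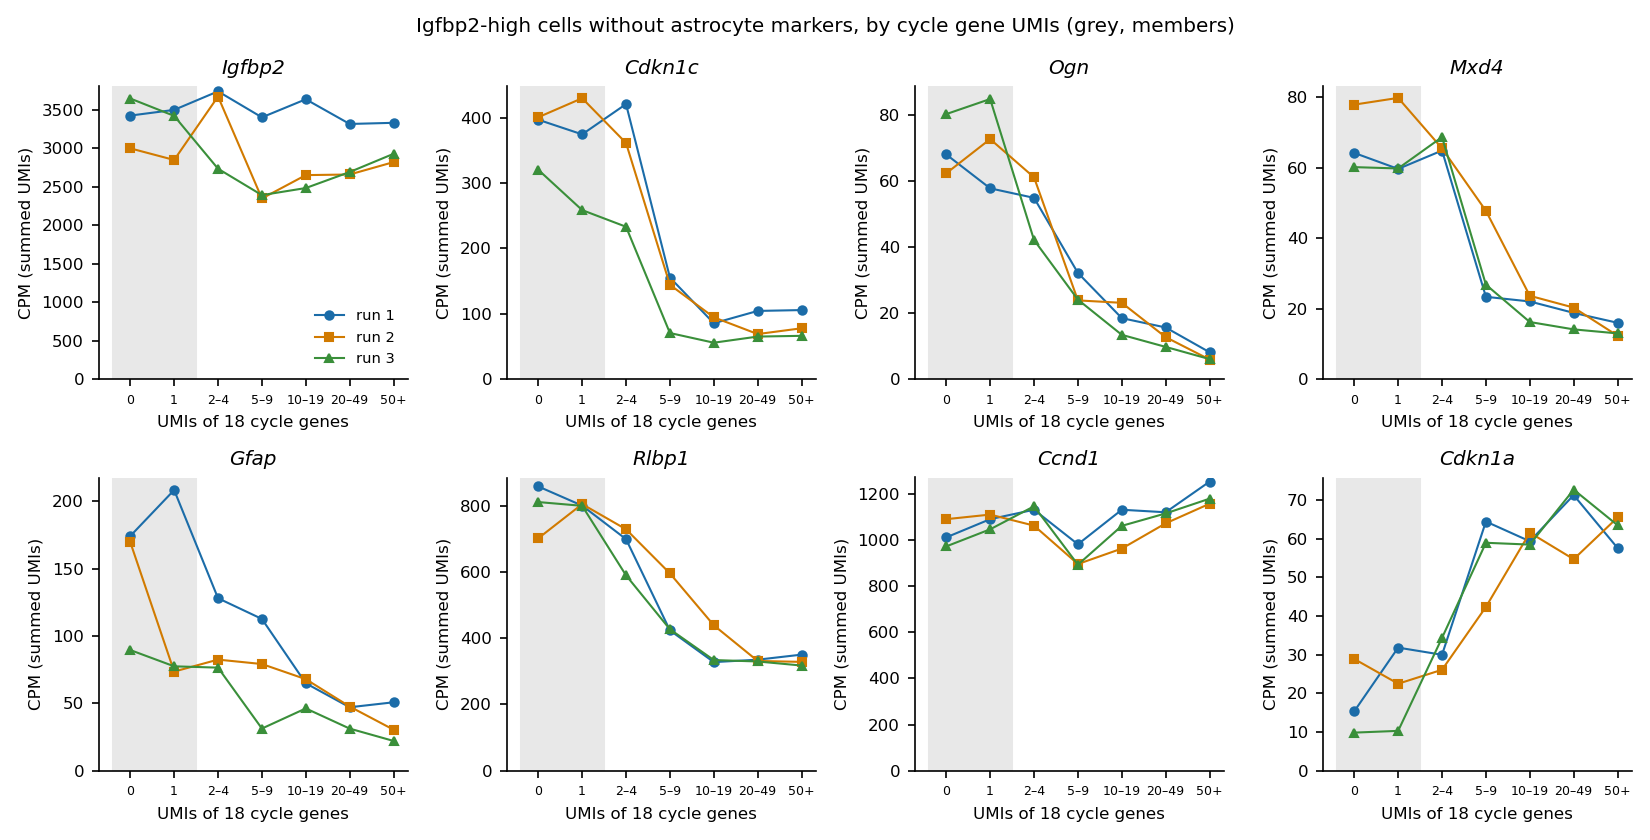
Level in CPM (vertical axes, from 0) of 8 genes in unmarked Igfbp2-high cells grouped by the UMIs of the 18 cycle genes (horizontal axes), with 1 line per run and the members shaded grey. Cdkn1c and Mxd4 are lower at 5 to 9 UMIs than at 2 to 4 in every run, Cdkn1a is higher from 5 to 9 UMIs on, and Ccnd1 shows no such step.

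The third comparison was among the members, those with at least 20 Igfbp2 UMIs per 10000 against those with 5 to under 10. The upper group held 161, 106 and 115 unmarked cells in runs 1, 2 and 3 and the lower group 45, 38 and 28. Of 8522 genes tested over all members, 1017 passed (11.9%), 524 higher (6.15%) and 493 lower (5.79%). In unmarked members 1290 of 7749 passed (16.6%), 639 higher (8.25%) and 651 lower (8.4%), and the median gene moved by -0.03 on the log2 scale. Over all members 439 genes passed without the run as a block and 346 with DESeq2.

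Within the members, actin genes were higher and glial genes lower where Igfbp2 was higher. Of 26 actin and myosin genes, 15 were higher and 1 lower in unmarked members. Cnn2 had 843, 867 and 986 CPM in the upper group, against 228, 310 and 299 CPM in the lower, a log2 change of 1.69 ± 0.10. Tagln rose by 2.23 and Fscn1 (fascin, which bundles actin) by 1.96, to 488 ± 78.1 CPM, against 126 ± 12.9 CPM. Igfbp3 rose by 3.38, Stc2 (stanniocalcin 2) by 2.66, Spon2 (spondin 2) by 2.62, Rprm by 2.24, Pdlim2 by 2.14 and Csf1 by 1.97. Of 25 Müller glia markers, 18 were lower and 3 higher, and Glul had 598, 478 and 442 CPM, against 1676, 1032 and 863 CPM. Nupr1 had 364, 199 and 219 CPM, against 1305, 1034 and 1380 CPM, a log2 change of -2.27 ± 0.10 (edgeR adjusted p = 6.46e-21). Gfap fell by 2.25 in unmarked members, to 61.0 ± 27.0 CPM, against 289 ± 98.5 CPM, while over all members its log2 change was 0.33. Trf fell by 2.56 in unmarked members and had a log2 change of 0.42 over all members that did not pass. Other large falls were Prss56 (-3.10), Dclk1 (-2.51), a kinase of microtubules, and Tppp3 (-2.39), a tubulin-binding protein. Cdkn1a had 9.44, 17.4 and 6.01 CPM, against 73.2, 61.6 and 26.4 CPM. Ccnd1 rose by 0.54 and Vgll3 by 0.82. Yap1 (0.81), Wwtr1 (-0.20), Cyr61 (0.20) and Ctgf (-0.43) did not pass in unmarked members.

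The same course was seen from below the limit upward. These levels are a description, since Igfbp2 set the groups. In unmarked cells outside the cycle with Ccl2 under 10, Cdkn1c averaged 37.5 CPM in the 12742 cells under 1 Igfbp2 UMI per 10000, 50.5 CPM in the 2335 cells at 1 to 5, 130 CPM in the 111 at 5 to 10, 282 CPM in the 159 at 10 to 20, 426 CPM in the 205 at 20 to 40 and 500 CPM in the 177 at 40 and above. Ccnd1 averaged 217 CPM at 1 to 5, 789 CPM at 5 to 10 and 1243 CPM at 40 and above. Close to the limit its step was small, with 719 CPM in the 36 members at 5 to 6 and 590 CPM in the 52 cells at 4 to 5. Cnn2 kept rising within the members, with 37.1, 279, 518, 745 and 1092 CPM from 1 to 5 upward. Glul averaged 2093 CPM at 1 to 5, 1190 CPM at 5 to 10 and 427 CPM at 40 and above, and Gfap 764, 289 and 38.1 CPM. Cyr61 averaged 1432 to 1695 CPM in all 6 groups, with 1695 CPM at 1 to 5. Within the members it averaged 1432, 1514, 1590 and 1674 CPM from 5 to 10 upward. It rose at each of these steps in runs 1 and 2, but not in run 3, with 1844, 1746, 1826 and 1864 CPM.

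**Figure D5:**
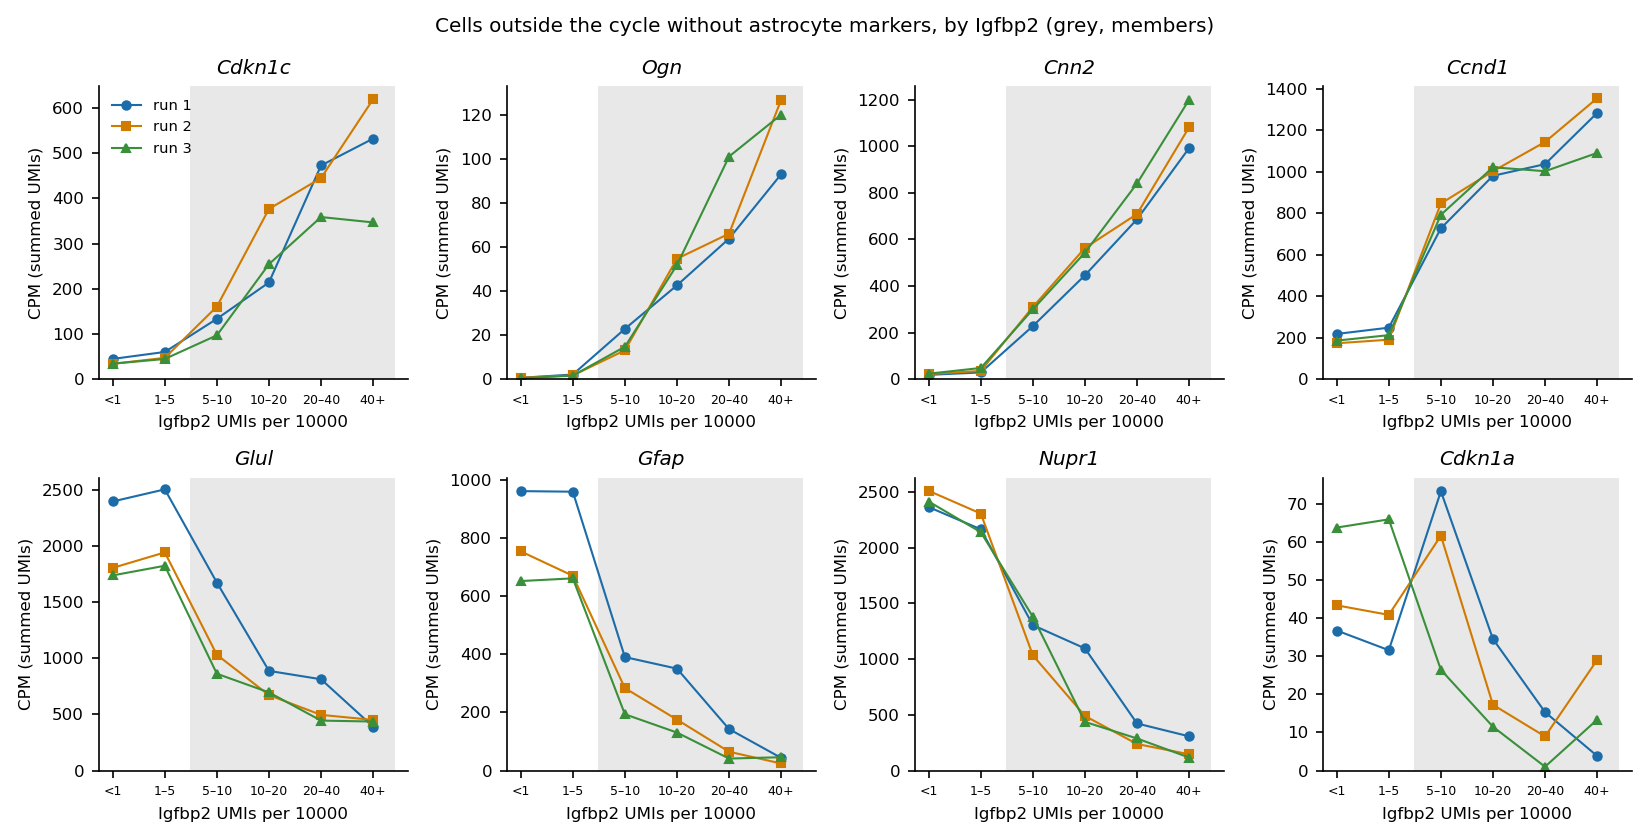
Level in CPM (vertical axes, from 0) of 8 genes in unmarked cells outside the cycle, grouped by Igfbp2 UMIs per 10000 (horizontal axes), with 1 line per run and the members shaded grey. In every run Cdkn1c, Ogn and Cnn2 are higher, and Glul, Gfap and Nupr1 lower, at 40 and above than at 5 to 10, and Ccnd1 is higher in each group of members than in the 2 groups below the limit.

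Likeness to Igfbp2 was also measured across single cells outside the cycle. Spearman correlations over 16489 cells thinned to 3500 UMIs, averaged over the 3 runs among 6484 genes, were highest for Cnn2 (0.304), Anxa3 (0.299), Hacd4 (0.260), Tpm1 (0.254) and Spcs3 (0.238), a subunit of signal peptidase. These values are low, the cells share depth and library, and the counts are sparse, so they rank the genes only. Without astrocyte-marked cells they were 0.309, 0.306, 0.267, 0.247 and 0.217 over 16244 cells.

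The last comparison asked whether the change from Igfbp2-low to Igfbp2-high cells differed outside and inside the cycle. Of 14363 genes, 4295 passed this test of the difference (29.9%), and 3647 of 14299 (25.5%) without astrocyte-marked cells. Without run 2 the count over all members was 2316. Among unmarked cells, Mxd4 had a difference of 1.78 ± 0.15, with 66.8 CPM in members and 84.7 CPM in Igfbp2-low cells outside the cycle, and 18.3 and 77.5 CPM inside it. For Rlbp1 the difference was 0.87 ± 0.08, for Glul 0.32 ± 0.10 and for Gfap 1.41 ± 0.15. The 555, 822 and 452 Igfbp2-low cells inside the cycle in runs 1, 2 and 3 held mostly few cycle UMIs, and 42, 42 and 57 of them held at least 10. With that limit for all cells inside the cycle, the difference for Rlbp1 over all members was -1.27, against 0.67 with a limit of 2, and those for Mxd4 and Glul also changed sign, so these differences rest on where the limit for cycling lies.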

How the data were processed

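Single-cell 3′ libraries of sorted tdTomato-positive retinal cells were measured in 3 runs. Per the submitters' processing notes, the authors used Cell Ranger (version not given in the sources used here), Seurat 2.3.4 and mm10. The deposited table holds raw UMI counts of 18478 genes in 24695 cells. The authors' second table holds natural log values of 13511 of these cells, equal to ln(1 + 10000 × count / total) within 5e-07, and was used only to see which cells the authors kept. Whether counting used strand is not given in the sources used here, so overlapping genes are uncertain.

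Cells with under 500 genes or over 20% mitochondrial UMIs were left out (23 cells, 1 of them a member). No doublet caller was run and doublets were kept. In run 1, cells with UMIs of both Xist and Y-linked genes made up 9.06% of unmarked members and 2.63% of Igfbp2-low cells. Among Igfbp2-high cells in the cycle they made up 5.95%. In run 3 these shares were 2.5%, 2.38% and 4.94%. The part of doublets and of depth in these shares was not tested. The 784 members and the Igfbp2-low cells were taken by the limits given in the report, with no Ccl2 limit on Igfbp2-low cells. The members, markers and gene lists were chosen with earlier results of these data known. UMIs were summed per class and run and tested with edgeR 4.0.16 in R 4.3.3 (filterByExpr, TMM scaling, quasi-likelihood test, run as a block, Benjamini-Hochberg adjustment over all genes, threshold 0.05), with the genes of the rule left out after scaling. The run is a block because classes of 1 run come from 1 library. Log2 changes are given ± SE and levels as CPM of summed UMIs ± SD over 3 runs. Each class held 28 or more cells per run.

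The text names the 12 largest rises and 8 largest falls per comparison past a log2 change of 1 that had 1 direction in every run and averaged 50 CPM or more in the higher class, up to 3 genes per list with the highest level, and Yap1, Wwtr1, Cyr61, Ctgf, Amotl2, Ccnd1, Cdkn1a, Gfap, Rlbp1 and Glul. The difference for 1 further gene is not reported here. Other list members were named after their values were seen. Astrocyte-marked cells were set apart after the data were seen. The test was tested on simulated data. Alternatives were DESeq2 1.42.0, other limits and filters, thinning to 3500 UMIs, no block and leaving out each run. Figures and tables used Python 3.11.15, numpy 2.4.6, scipy 1.17.1, pandas 2.3.3 and matplotlib 3.10.9. Exact binomial intervals have 95% confidence.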

Additional observations from a re-analysis of the deposited data

Results flagged for a closer look

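For 22 named genes the change from Igfbp2-low to Igfbp2-high cells differed outside and inside the cycle, by edgeR's test of that difference over all members. Most of them were named because they passed it with a large difference, so their number is not a result. Of all 14363 genes tested, 4295 (29.9%) passed. Values are log2 differences, outside minus inside. Among genes high in astrocyte-marked members, the difference was 5.49 for Rgs5, 4.53 for Pdgfra, 4.48 for Igfbp5, 4.33 for S100b and 3.93 for Ntrk2. It was 3.59 for Gfap, 3.58 for Serpina3n, 3.50 for Lcn2, 3.42 for Fn1 and 6.01 for Spp1 (osteopontin). Without astrocyte-marked cells these were 2.71 for Rgs5, 2.16 for Igfbp5, 1.19 for S100b, 1.99 for Ntrk2, 1.41 for Gfap, 1.02 for Serpina3n, 0.50 for Lcn2, 0.78 for Fn1 and 4.66 for Spp1. Of these, S100b, Gfap and Serpina3n still passed. S100b and Pdgfra are among the markers that set these cells apart, so their values without them follow partly from that limit. The edgeR adjusted p was 0.130 for Rgs5, 0.0648 for Igfbp5, 0.123 for Ntrk2, 0.613 for Lcn2, 0.106 for Fn1 and 0.277 for Spp1, and Pdgfra was too low to be tested. The microglia gene C1qa had a difference of 4.59, and Igfbp2-low cells inside the cycle without astrocyte markers held 349, 75.8 and 21.9 CPM of it in runs 1, 2 and 3.

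Mitotic genes had negative differences: Cenpe -4.74, Aurka -4.70, Kif20b -4.34, Kif22 -4.13, Plk1 -4.06, Ckap2 -4.03, Anln -3.96 and Psrc1 -3.81. Without astrocyte-marked cells they ran from -4.56 for Aurka to -3.68 for Psrc1. These genes act in the same processes as those of the rule.

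For Rlbp1 the difference was 0.67, and 0.87 without astrocyte-marked cells. For Cdkn1a it was -1.11, and -0.97 without them, which did not pass (edgeR adjusted p = 0.0618). With at least 10 cycle UMIs inside the cycle, over all members, it was -1.27 for Rlbp1 and 0.065 for Cdkn1a, the opposite direction for each. For Ctgf it was 1.23, and 0.16 without them, which did not pass (edgeR adjusted p = 0.557).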

How the results depend on the processing

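The counts of genes that passed stayed within 1.5 times under most alternatives, and these moved further. Thinning to 3500 UMIs also set the Igfbp2 and Ccl2 limits anew, on the thinned counts. The count was then 4423 against Igfbp2-low cells, 4570 against cycling cells and 2412 for the difference between them. Without the run as a replicate block it was 439 for upper against lower members and 2398 for the difference, and DESeq2 gave 346 for upper against lower members. Leaving out 1 run gave 2316 to 3366 for the difference, with run 2 the lowest. Cells of the authors' log table gave 2609 and a limit of 10 cycle UMIs 2392. The share of members was 1.79% with 0 cycle UMIs allowed and 4.40% among cells the authors kept. The cause of these shifts was not tested. For the difference, 47.4% of calls over all members were higher, against 57.5% when thinned and 36.7% with 10 cycle UMIs. Setting astrocyte-marked cells apart was chosen after seeing the data, and S100b is among the markers that set them apart. Its values without these cells therefore follow partly from that limit. Against Igfbp2-low cells, Gfap changed sign to -2.44, S100b to -1.62, Igfbp5 to -0.73 and Rgs5 to -0.29 without them. Without each run as well the values were -2.64, -2.46 and -2.28 for Gfap and -1.58, -1.84 and -1.46 for S100b. Without run 2 and without run 3, Igfbp5 was -3.03 and -0.44, and Rgs5 was -4.38 and -0.10. With run 1 left out instead, Igfbp5 and Rgs5 were not among the genes that changed sign. Against cycling cells, Igfbp5 (-0.26) and Rgs5 (-1.78) changed sign when astrocyte-marked cells and run 2 were both left out. For upper against lower members, Gfap was -2.25 and Trf -2.56 without astrocyte-marked cells. A further alternative left out cells marked for microglia, fibroblasts, astrocytes, cones or retinal pigment epithelium, but not for other types. There Gfap was -2.40, S100b -1.57 and Igfbp5 -0.61 in the first comparison. For upper against lower members Gfap was -2.17 and Trf -2.61, and Fn1 in the difference was -0.16. In the authors' cells, Igfbp5 was -3.08, Gfap -2.75, S100b -2.56 and Rgs5 -2.38 against Igfbp2-low cells, Rgs5 -0.81 against cycling cells, Gfap -1.95 and Trf -2.48 for upper against lower members, and in the difference Rgs5 -0.63, Fn1 -0.30, Spp1 -0.24 and Lcn2 -0.042. With 10 cycle UMIs the difference was -1.54 for Glul, -1.27 for Rlbp1, -0.16 for Mxd4, -0.10 for Hist1h2bc and 0.065 for Cdkn1a. Thinned, Cyr61 was -0.019 for upper against lower members.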
